A study of Mus musculus with 6 samples.

Results

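In RNA sequencing of mouse intestinal crypt stem cells, 10 genes known from fibroblasts and muscle cells were examined as a gauge of mesenchymal RNA in each sample. They were Col1a1, Col1a2, Col3a1, Dcn, Sparc, Pdgfra, Acta2, Des, Myh11 and Vim, chosen by name, and they make up 10 of the 28752 genes in the deposited table. All 10 passed the filter on low counts, as did 18348 genes in all.

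The labels call the cells intestinal crypt stem cells. In the paper's general methods, Lgr5+ intestinal stem cells (ISCs) were sorted from Lgr5-GFP mice by their green fluorescence. They were then grown as organoids, small epithelial cultures with crypts and villus-like parts. The paper does not say that the sequenced cells were prepared in this way. All 6 samples were labelled as hypoxia/reoxygenation (H/R), a cell culture model of ischemia and reperfusion in which organoids are kept for 4 h at 2% O2. The 3 vector samples carried the genotype label WT, and the 3 circEZH2_005 samples were labelled as overexpressing this circular RNA. The labels give 72 h of adenovirus infection before H/R for the vector and the circEZH2_005 samples alike. The paper's organoid methods give a shorter time after transfection. The table counts genes, so the circular RNA was not measured as a feature of its own and its overexpression was not checked here. Total RNA was enriched with oligo(dT), the age of the Lgr5-GFP mice is not given in the sources used here, the study states that all its animals were male, and cultures without hypoxia were not analysed here. The paper calls its replicates biological, but neither it nor the labels say that the sequenced samples of a group came from separate mice, so the p-values measure only the spread between these samples, which may be technical.

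Fibroblasts of the gut wall secrete the fibrillar collagens and the proteins that bind them, and carry the receptor Pdgfra. Smooth muscle cells of the gut wall contract through smooth muscle actin and myosin, anchored by the intermediate filament desmin. Vimentin, the intermediate filament of mesenchymal cells, is also abundant in leukocytes and endothelial cells, while the gut epithelium builds its filaments mainly from keratins.

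These 3 promoter windows are those of Vim and the skeletal muscle actin Acta1, whose groups did not overlap, and of the smooth muscle actin Acta2, whose groups did. The windows are a description, and a link between their motifs and the levels was not tested. Each window runs from 250 bases before to 50 bases after the gene start in RefSeq (GRCm38.p6), written 5′ to 3′ on the gene's strand. The windows are chr2:13574061-13574360 on the plus strand for Vim, chr19:34255324-34255623 on the minus strand for Acta2 and chr8:123894726-123895025 on the minus strand for Acta1. Capitals mark TATAAA and the CArG box, the motif of serum response factor, both looked for on either strand.
Vim: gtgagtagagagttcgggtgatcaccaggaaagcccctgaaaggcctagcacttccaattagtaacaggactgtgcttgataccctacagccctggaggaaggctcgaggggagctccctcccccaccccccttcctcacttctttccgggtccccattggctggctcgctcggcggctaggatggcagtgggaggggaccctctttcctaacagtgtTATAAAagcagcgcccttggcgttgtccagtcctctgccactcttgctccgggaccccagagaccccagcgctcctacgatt
Acta2: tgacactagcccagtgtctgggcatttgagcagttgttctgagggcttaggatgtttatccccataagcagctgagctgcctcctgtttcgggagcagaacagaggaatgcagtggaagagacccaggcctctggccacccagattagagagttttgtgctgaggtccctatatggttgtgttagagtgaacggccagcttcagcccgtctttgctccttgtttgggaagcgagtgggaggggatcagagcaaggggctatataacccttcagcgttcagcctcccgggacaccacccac
Acta1: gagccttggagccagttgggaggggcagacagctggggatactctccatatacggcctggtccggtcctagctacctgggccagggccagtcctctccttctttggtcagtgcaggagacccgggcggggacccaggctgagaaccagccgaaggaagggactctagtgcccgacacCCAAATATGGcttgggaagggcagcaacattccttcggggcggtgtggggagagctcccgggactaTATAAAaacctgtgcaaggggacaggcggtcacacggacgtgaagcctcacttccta
The Vim window held TATAAA beginning 32 bases before the gene start and no CArG box. The Acta1 window held a CArG box (CCAAATATGG) 73 bases before the start and TATAAA 7 bases before it. The Acta2 window matched neither motif, which says only that these letters were not in this window. Near matches were not counted, such as ccctatatgg and tatataa in the Acta2 window. A CArG box stood in 1.63% (535) and TATAAA in 13.6% (4473) of the 32851 windows of this length in the reference, and 7 of the 10 genes had a window there.

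The samples were deeply sequenced, with 71506487 to 79919893 counts in each. The defining markers of epithelium were abundant, and 12 epithelial genes summed to 13566 to 14049 CPM (counts scaled to library size with TMM) with the vector and to 15289 to 20054 with circEZH2_005. Epcam, the general epithelial adhesion gene, named here after its values were seen, averaged 571.5 FPKM (fragments per kilobase of transcript, scaled to library size) over the 6 samples. The stem cell receptor Lgr5 averaged 1.05 FPKM, the lowest of these 12 genes. The pan-leukocyte phosphatase Ptprc, named here after its values were seen, lay between 1.13 and 9.39 FPKM in the 6 samples.

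Against that background the fibroblast and muscle genes were scarce. Of the 10, 9 averaged under 1 FPKM, and only Vim, at 3.67 FPKM, was above it. Together the 10 genes took 0.00148 to 0.00476% of a sample's counts. By mean FPKM the order ran Vim, Sparc (0.411), Dcn (0.233), Col3a1 (0.212), Acta2 (0.141), Des (0.104), Col1a1 (0.0932), Col1a2 (0.0681), Pdgfra (0.0447) and Myh11 (0.0249). The lowest Vim sample, at 1.58 FPKM, was above the highest Sparc sample, at 0.796 FPKM, while every later pair of neighbours in this order overlapped over the 6 samples. In a bulk sample fewer cells of a type and less RNA per cell cannot be told apart.

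**Figure D1:**
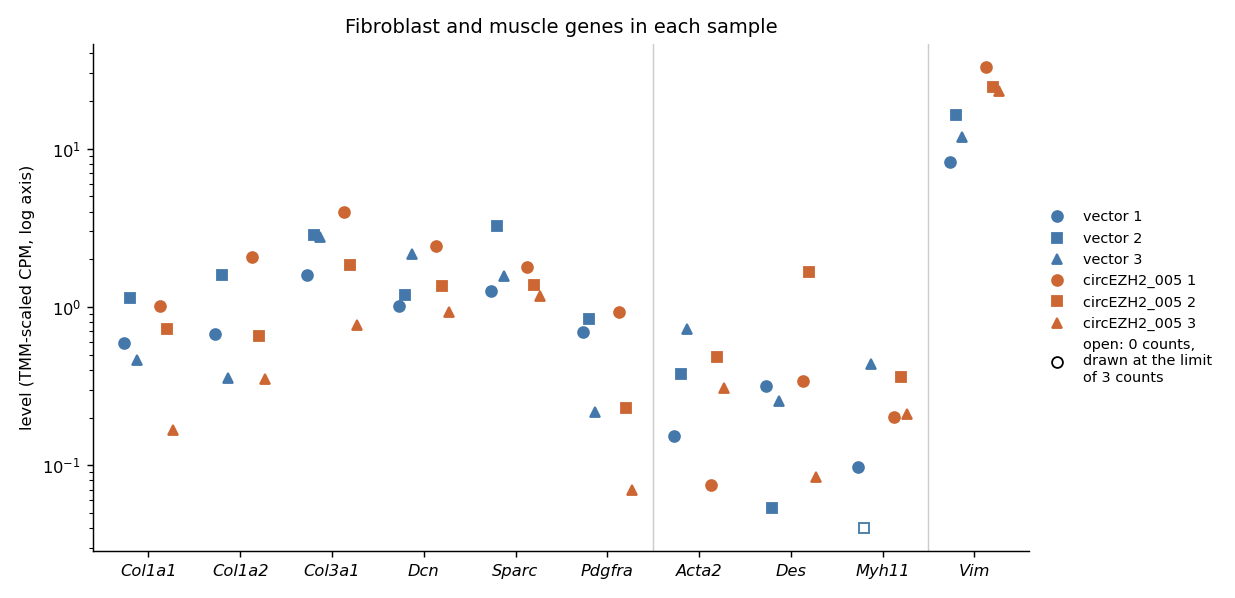
Level of each of the 10 genes in each sample, in TMM-scaled CPM on a log axis, with the fibroblast genes on the left, the muscle genes in the middle and Vim on the right; colours give the group, marker shapes the replicate number. The open square is Myh11 in vector sample 2, which had 0 counts. Vim is the one gene whose 3 circEZH2_005 samples all lie above the 3 vector samples.

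The first question was whether overexpressing circEZH2_005 under H/R changed any of these genes. None of the 10 passed an adjusted p-value of 0.05 in edgeR in either direction, against 2.69% of all genes tested that passed higher and 0.986% that passed lower with circEZH2_005. At an unadjusted p under 0.05 there was 1 of the 10, Vim, against 23.7% of all genes tested in either direction. Vim was also the 1 gene of the 10 whose groups did not overlap, against 30.6% of all genes tested. DESeq2 called 1 of the 10 (Vim) at an adjusted p under 0.05, against 9.25% of its genes called higher and 4.1% called lower. Limma on FPKM tested Vim alone of the 10, the others averaging below its minimum of 0.5 FPKM, and called 0. Of the log2 fold changes, 5 were above 0 and 5 below, with a median of -0.01, beside 0.00 over all genes tested.

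Collagen I is a trimer of the Col1a1 and Col1a2 chains, and collagen III of the Col3a1 chain alone, and the fibrils they form are the main product of fibroblasts. Col1a1 (ENSMUSG00000001506, chr11:94936224-94953042, mm10) stood at 0.594, 1.14 and 0.460 CPM in vector samples 1 to 3 and at 1.02, 0.726 and 0.167 CPM in circEZH2_005 samples 1 to 3. The groups overlapped, and the log2 fold change was -0.19 ± 0.65 (SE, adjusted p = 0.896). The 95% interval ran from -1.71 to 1.33, so it took in falls and rises of over 2-fold alike.

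Col1a2 (ENSMUSG00000029661, chr6:4504814-4541544) stood at 0.677, 1.59 and 0.358 CPM with the vector and at 2.08, 0.658 and 0.349 CPM with circEZH2_005. Its highest and its lowest sample both belonged to the circEZH2_005 group, and the log2 fold change was 0.23 ± 0.75 (SE, adjusted p = 0.889). Col3a1 (ENSMUSG00000026043, chr1:45311538-45349706) was the most abundant of the 3 collagen genes by FPKM, at 1.59, 2.85 and 2.78 CPM with the vector and 4.00, 1.83 and 0.768 CPM with circEZH2_005. There too the circEZH2_005 group held both extremes, with a log2 fold change of -0.13 ± 0.55 (SE, adjusted p = 0.917). Col1a2 overlaps Gm43921 and Col3a1 overlaps Gm47302 on the same strand, and how reads in such overlaps were counted is not given in the sources used here.

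Decorin, encoded by Dcn, is a small proteoglycan that coats collagen fibrils. Dcn (ENSMUSG00000019929, chr10:97479609-97518143) stood at 1.01, 1.19 and 2.17 CPM with the vector and at 2.43, 1.36 and 0.935 CPM with circEZH2_005. With 67 to 193 counts in a sample, its log2 fold change of 0.11 ± 0.44 (SE) had an adjusted p of 0.912. Sparc encodes osteonectin, a secreted protein that binds collagen and calcium. Sparc (ENSMUSG00000018593, chr11:55394500-55423183) stood at 1.26, 3.24 and 1.57 CPM with the vector and at 1.80, 1.37 and 1.17 CPM with circEZH2_005. Vector sample 2 was the highest by a wide gap, and the log2 fold change was -0.48 ± 0.39 (SE, adjusted p = 0.513).

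Pdgfra, the receptor for platelet-derived growth factor A, marks most fibroblasts under the gut epithelium. Pdgfra (ENSMUSG00000029231, chr5:75152292-75198215) stood at 0.691, 0.843 and 0.217 CPM with the vector and at 0.931, 0.228 and 0.0698 CPM with circEZH2_005. The circEZH2_005 samples alone spanned a 13.3-fold range, from 74 counts down to 5. The log2 fold change was -0.50 ± 0.89 (SE, adjusted p = 0.788), and Mir7025 lies within Pdgfra on the same strand.

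The fibroblast genes differed more between samples of one group than between the groups. Summed over the 6 (Col1a1, Col1a2, Col3a1, Dcn, Sparc and Pdgfra), the level was 5.81, 10.9 and 7.56 CPM with the vector and 12.3, 6.17 and 3.46 CPM with circEZH2_005. The means were 8.08 ± 2.56 and 7.29 ± 4.50 CPM (SD, n = 3 each), and the 3 circEZH2_005 samples spanned a 3.54-fold range. The genes shared an order among the circEZH2_005 samples: sample 1 was the highest of its group for 6 of 6 genes, and sample 3 was the lowest of all 6 samples for 6 of 6. Among the vector samples, sample 2 was the highest for 5 of 6. The epithelial sum was 1248 to 5161 times the fibroblast sum, so the fibroblast share was smallest in circEZH2_005 sample 3. It was largest in circEZH2_005 sample 1 (1248 times) and nearly as large in vector sample 2 (1288 times). In FPKM the fibroblast sum was highest in vector sample 2, at 1.61 against 1.58 in circEZH2_005 sample 1, so the top sample depended on the unit.

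**Figure D2:**
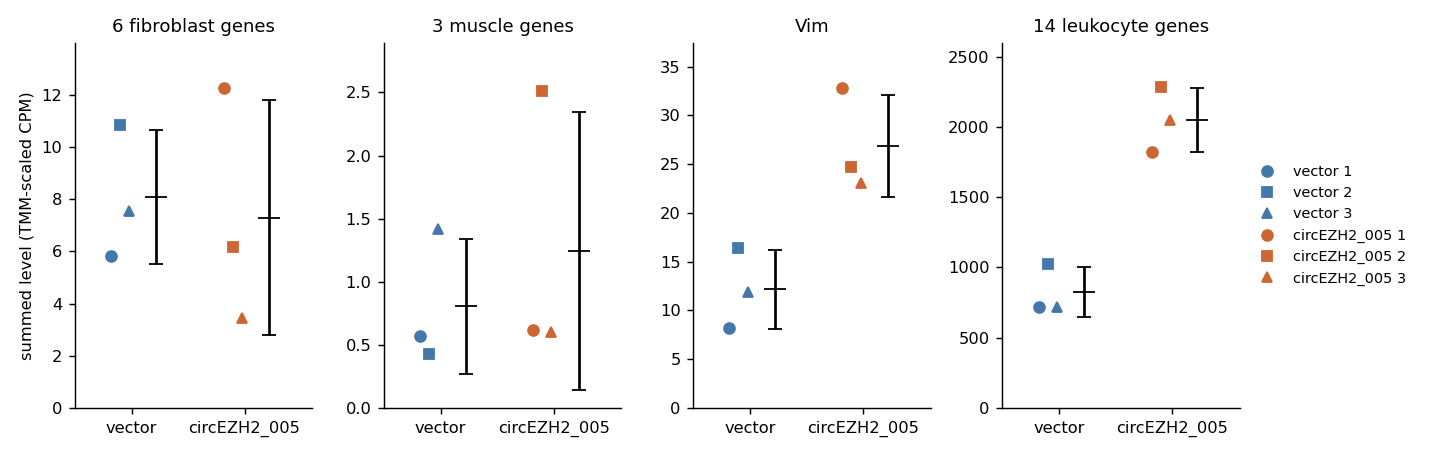
Summed TMM-scaled CPM per sample for the 6 fibroblast genes, the 3 muscle genes, Vim and 14 leukocyte genes, each on its own linear axis from 0; points are samples, bars to their right the mean and SD of 3 samples. The fibroblast and muscle sums overlap between the groups, whereas Vim and the leukocyte sum do not. Most of the leukocyte sum is Cd74, which the gut epithelium can express too.

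The muscle genes were scarce too, at most 0.370 FPKM in any sample. Acta2 encodes the actin of vascular smooth muscle and myofibroblasts. Acta2 (ENSMUSG00000035783, chr19:34241090-34255590) stood at 0.152, 0.375 and 0.728 CPM with the vector and at 0.0755, 0.484 and 0.307 CPM with circEZH2_005, which is 6 to 57 counts in a sample. The groups overlapped, with a log2 fold change of -0.54 ± 0.79 (SE, adjusted p = 0.736).

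Des encodes desmin, which ties the contractile units of muscle cells together. Des (ENSMUSG00000026208, chr1:75360329-75368579) stood at 0.318, 0.0535 and 0.256 CPM with the vector and at 0.340, 1.67 and 0.0837 CPM with circEZH2_005. circEZH2_005 sample 2 held 124 counts and no other sample held more than 27, so this 1 sample set the log2 fold change of 1.73 ± 1.06 (SE, adjusted p = 0.373). Without it the log2 fold change was 0.02. Gm15179 overlaps Des on the other strand, and whether counting used strand is not given in the sources used here.

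Myh11, the heavy chain of smooth muscle myosin, is the most specific of these genes for smooth muscle. Myh11 (ENSMUSG00000018830, chr16:14194535-14291372) had 7, 0 and 34 counts with the vector and 16, 27 and 15 with circEZH2_005. The 0 counts in vector sample 2 allow a level of up to 0.0402 CPM, from 3 counts of that library, a limit that covers counting error only. The log2 fold change was 0.53 ± 1.14 (SE, adjusted p = 0.828). Summed over Acta2, Des and Myh11, the level was 0.566, 0.428 and 1.42 CPM with the vector and 0.616, 2.51 and 0.600 CPM with circEZH2_005, so 1 sample of each group stood above the other two.

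Vim stood apart from the other 9 genes in level and in pattern. Vim (ENSMUSG00000026728, chr2:13573927-13582826) had 597, 1224 and 927 counts with the vector and 2609, 1835 and 1649 with circEZH2_005. Scaled, that was 8.25, 16.4 and 11.8 CPM against 32.8, 24.7 and 23.0 CPM, and every circEZH2_005 sample was above every vector sample.

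The mean was 12.2 ± 4.08 CPM with the vector and 26.8 ± 5.25 CPM with circEZH2_005 (SD, n = 3 each), a gap wider than either SD, but the gene missed the adjusted threshold. The log2 fold change was 1.14 ± 0.25 (SE), a 2.21-fold difference with a 95% interval of 1.47 to 3.32, at an adjusted p of 0.0541 in edgeR. The exact permutation test over the samples (two-sided) gave p = 0.1, the smallest value that 3 against 3 samples allow. Over 13 alternatives the adjusted p lay between 0.000108 and 0.187 and was under 0.05 in 3: DESeq2, a filter at a mean of 1 CPM, and leaving out vector sample 2 (0.0113). No 50-base stretch of the annotated Vim transcripts occurred in those of another gene.

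**Figure D3:**
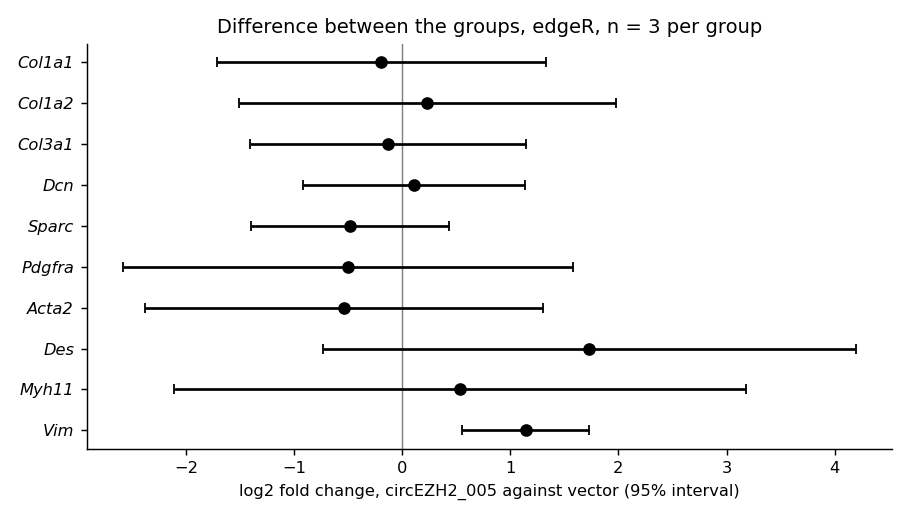
Log2 fold change of each gene, circEZH2_005 against vector, from edgeR with 3 samples per group; bars are 95% intervals and the vertical line marks no difference. The interval of Vim, from 0.55 to 1.73, is the one that leaves out 0, before adjustment over all genes tested.

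Vim is shared by many cell types, so the levels of 14 leukocyte genes were set beside it. They summed to 721, 1027 and 718 CPM with the vector and to 1821, 2281 and 2045 CPM with circEZH2_005, without overlap. Most of this sum came from 1 gene, Cd74. The highest mean of the 14 was 614.3 FPKM over the 6 samples, against a median of 4.37. All 14 genes had log2 fold changes above 0, with a median of 1.28, and 7 of 14 had an unadjusted p under 0.05, against 23.7% of all genes tested. In edgeR 1 of 14 passed the adjusted threshold, against 2.69% of all genes tested called higher. This gene was Cd74, the invariant chain of MHC class II, at a log2 fold change of 1.27 ± 0.17 (SE, adjusted p = 0.0181). DESeq2 called 5 of 14 higher, against 9.25% of its genes. Without vector sample 2 edgeR called 7 of 14 higher, while its calls over all genes rose from 493 to 1098. The share of all genes called in that fit is not given here. The gut epithelium can express Cd74 too, and its call was lost without vector sample 1 (adjusted p = 0.0975), vector sample 3 (0.104), circEZH2_005 sample 2 (0.0643) or circEZH2_005 sample 3 (0.0520).

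None of the 14 leukocyte genes was at 0 in all samples of a group. The 6 samples stood in the same order for Vim as for 5 of the 14 leukocyte genes (Ptprc, Cd3e, Laptm5, Coro1a and Cd52, named for this order), for Zeb2, and for 386 (2.1%) of all genes tested. The other 9 of the 10 fibroblast and muscle genes had overlapping groups, so none of them could share that order. The part of leukocyte RNA in the Vim difference was not tested.

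Further genes of the same cell types were read from fixed lists. Over all genes tested, edgeR called 2.69% higher and 0.986% lower, and DESeq2 9.25% and 4.1% of its genes. Of 18 fibroblast matrix genes, 14 were tested and none passed the adjusted threshold in edgeR or DESeq2. At an unadjusted p under 0.05 there was 1 of the 14 (Fn1), against 23.7% of all genes tested. The median log2 fold change of the 14 was 0.35, and 17 of the 18 averaged under 1 FPKM. Fbln1, a matrix glycoprotein gene, was the exception at 14.8 FPKM, with 66.8 ± 4.64 CPM with the vector and 78.7 ± 24.4 CPM with circEZH2_005 (SD, n = 3 each). Its log2 fold change was 0.24 ± 0.21 (SE, adjusted p = 0.563). Fn1, which encodes fibronectin, was at 8.42 ± 2.98 and 5.15 ± 1.32 CPM (SD, n = 3 each), and its log2 fold change was -0.71 ± 0.29 (SE, adjusted p = 0.197).

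Of 17 stromal niche genes, markers and signals of the fibroblasts around the crypt, 16 were listed and 9 tested. None passed the adjusted threshold in edgeR or DESeq2, and the median log2 fold change of the 9 was 0.30. At an unadjusted p under 0.05 there were 2 of the 9, both higher with circEZH2_005. That is near the 23.7% of all genes tested. The pair were Thy1 and Prrx1, also the most abundant of the list. Thy1, a surface protein of fibroblasts and of mouse T cells, stood at 2.75, 10.6 and 2.58 CPM with the vector and at 26.2, 18.6 and 13.9 CPM with circEZH2_005. All 3 circEZH2_005 samples were above the vector samples, and the log2 fold change was 1.88 ± 0.56 (SE, adjusted p = 0.0982). Vector sample 2 decided whether Thy1 passed: without it the log2 fold change was 2.88 and the adjusted p 0.00397. Prrx1, a transcription factor of mesenchyme, had a log2 fold change of 0.55 ± 0.21 (SE, adjusted p = 0.165).

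Smooth muscle genes beyond the 3 above numbered 15, of which 14 were listed and 11 tested. None passed the adjusted threshold in edgeR. DESeq2 called 2 higher (Tagln and Tpm2, named after their values were seen), against 9.25% of its genes. At an unadjusted p under 0.05 in edgeR there were 2 of the 11, against 23.7% of all genes tested. The median log2 fold change of the 11 was 0.19. Tpm1 and Mylk, a tropomyosin and the myosin light chain kinase that many non-muscle cells also use, were the most abundant, at 38.6 and 18.8 FPKM. Tpm1 had a log2 fold change of 0.14 ± 0.09 (SE, adjusted p = 0.414) and Mylk of 0.19 ± 0.13 (SE, adjusted p = 0.433). Tagln, the smooth muscle protein transgelin, stood at 0.193, 0.308 and 0.613 CPM with the vector and 1.55, 1.22 and 0.907 CPM with circEZH2_005, without overlap. Its log2 fold change was 1.72 ± 0.48 (SE, adjusted p = 0.0858).

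**Figure D4:**
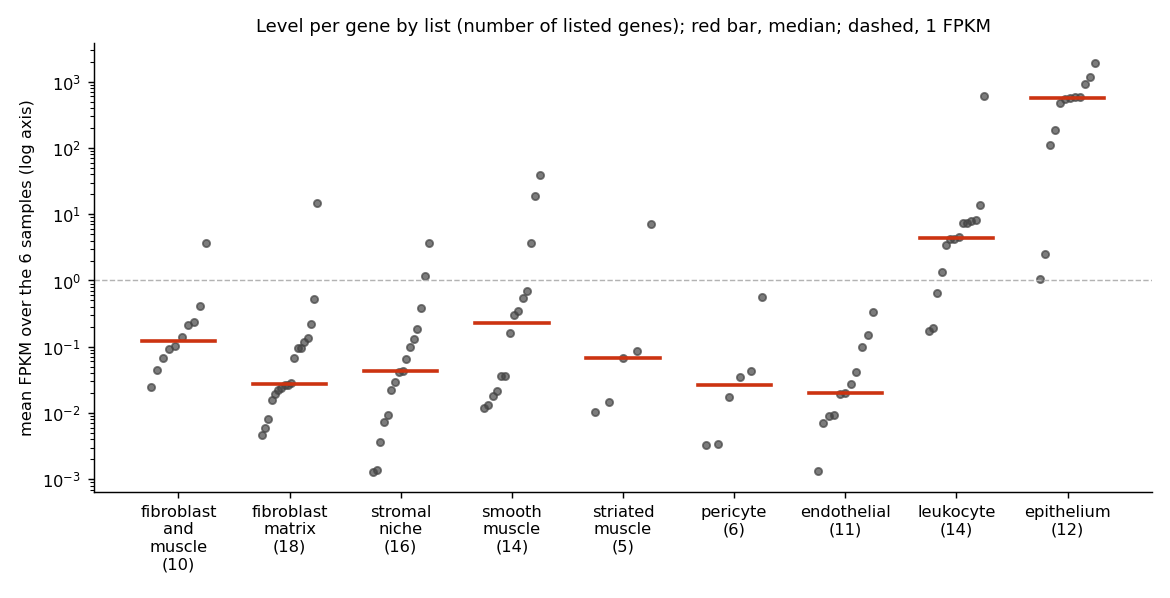
Mean FPKM over the 6 samples, on a log axis, of each listed gene of 9 lists; each point is a gene, the red bar the median of its list and the dashed line 1 FPKM. The median was 0.122 FPKM over the 10 fibroblast and muscle genes, 4.37 over the leukocyte genes and 557.7 over the epithelial genes.

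Striated muscle gave the 1 muscle gene that passed, where 2.69% of all genes tested were called higher. Of 6 genes of that list, 5 were listed and 3 tested, and Acta1, the actin of skeletal muscle, was higher with circEZH2_005. It had 210, 284 and 336 counts with the vector and 1034, 1735 and 2097 with circEZH2_005. Scaled, that was 3.66 ± 0.71 against 21.9 ± 8.23 CPM (SD, n = 3 each), a 5.96-fold difference with no overlap. The log2 fold change was 2.58 ± 0.31 (SE, adjusted p = 0.0138), and the adjusted p was under 0.05 in 10 of 13 alternatives. It rose above 0.05 without vector sample 1 (0.0761), vector sample 3 (0.0802) or circEZH2_005 sample 2 (0.0643). The median log2 fold change of the 3 tested genes was 2.58, and 2 of the 3 had an unadjusted p under 0.05, against 23.7% of all genes tested. Ckm and Tnnt3, named after their values were seen, were far scarcer than Acta1. They passed the filter on low counts mainly through their circEZH2_005 samples. The median and the 2 of 3 therefore cannot show a shift of the list. Ckm, the creatine kinase of muscle, had 0, 4 and 15 counts with the vector and 52, 32 and 32 with circEZH2_005, without overlap, at a log2 fold change of 2.60 ± 0.98 (SE, adjusted p = 0.162). Tnnt3, a troponin of fast skeletal muscle, had 0, 0 and 11 counts with the vector and 4, 21 and 22 with circEZH2_005, at a log2 fold change of 2.12 ± 1.38 (SE, adjusted p = 0.404).

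The other muscle actins, of which Actg2 and Actc1 were named after their values were seen, had low counts and gave no call. Acta2 had overlapping groups, as above, while Actg2, the actin of visceral smooth muscle, had 4, 0 and 12 counts with the vector and 14, 0 and 0 with circEZH2_005. Actc1, the cardiac actin, had 0 counts in all 3 vector samples and 6, 4 and 0 with circEZH2_005. Neither Actg2 nor Actc1 was tested, and counts this low cannot settle whether they differed between the groups. Of the transcript sequence of Acta1, 2.02% of 50-base stretches also occur in other genes (10, with Gm47692 holding the most), against 0.326% (6 genes) for Acta2. Acta1 overlaps Gm20388 on the other strand.

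**Figure D5:**
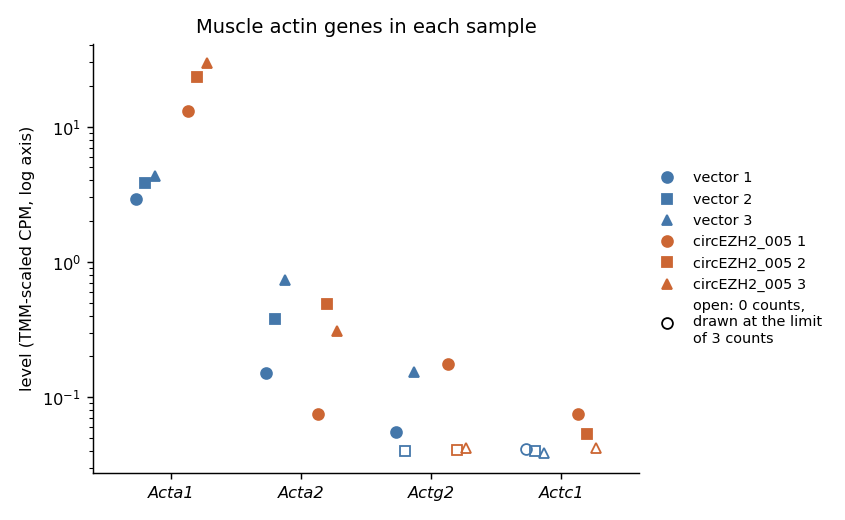
Level of the 4 muscle actin genes in each sample, in TMM-scaled CPM on a log axis; open markers are samples with 0 counts, drawn at the limit of 3 counts. The 3 circEZH2_005 samples lie above the 3 vector samples for Acta1, and the groups overlap for Acta2 and Actg2.

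Genes of vessels were low, and 1 on each of their lists passed, where 2.69% of all genes tested were called higher. Mcam, an adhesion molecule of pericytes, smooth muscle and endothelium, stood at 0.732, 0.937 and 0.179 CPM with the vector and at 4.43, 3.61 and 2.86 CPM with circEZH2_005. Its log2 fold change was 2.56 ± 0.53 (SE, adjusted p = 0.0473). It was 1 of 3 genes tested of 6 on the pericyte list, whose median log2 fold change was 0.47. Pecam1, an adhesion molecule of endothelium that leukocytes and platelets also carry, stood at 0.635, 1.07 and 1.24 CPM with the vector and at 5.22, 3.44 and 2.55 CPM with circEZH2_005. Its log2 fold change was 1.93 ± 0.36 (SE, adjusted p = 0.0377), and it was 1 of 5 genes tested of 11 on the endothelial list, whose median was 0.93. Both calls were lost on leaving out any 1 sample but vector sample 2, with adjusted p up to 0.157 for Mcam and 0.133 for Pecam1. They were also lost with no filter on low counts (0.0937 and 0.0747), and the adjusted p was under 0.05 in 5 of 13 alternatives for Mcam and 4 of 11 for Pecam1.

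Of the genes that mark a shift from an epithelial to a mesenchymal state, such as the repressors Zeb1, Zeb2 and Snai2, none passed. Of 5 on that list, 3 were tested, with a median log2 fold change of 1.19. At an unadjusted p under 0.05 there were 2 of the 3, 1 in each direction, against 23.7% of all genes tested. DESeq2 called 1 higher (Zeb2), against 9.25% of its genes. Leaving out vector sample 2 brought Zeb1 (adjusted p = 0.0335) and Zeb2 (0.0308) past the threshold. In that fit the calls higher over all genes rose too, from 493 to 1098. Over all samples Zeb2 stood at 0.387, 1.06 and 0.792 CPM with the vector and at 2.59, 2.46 and 1.80 CPM with circEZH2_005, a log2 fold change of 1.61 ± 0.39 (SE, adjusted p = 0.0616). Zeb1 had a log2 fold change of 1.19 ± 0.68 (SE, adjusted p = 0.338) with overlapping groups. Snai2, chosen after its values were seen, averaged 0.419 ± 0.117 CPM with the vector and 0.105 ± 0.0489 CPM with circEZH2_005 (SD, n = 3 each), and its log2 fold change was -1.97 ± 0.59 (SE, adjusted p = 0.0986).

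Outside these lists, 5 genes had profiles over the 6 samples nearest to the summed level of the 10 genes: Taf9b, Itprip, Gimap5, Nsmaf and Nfatc1. Nearness was the root mean square difference of centred log2(CPM + 0.5) values, which was 0.0612 for Taf9b and 0.133 for Nfatc1, against a median of 0.539 over the 13296 genes compared. The summed level of the 10 genes was 14.6, 27.7 and 20.8 CPM with the vector and 45.7, 33.3 and 27.1 CPM with circEZH2_005, and most of it was Vim. Without Vim, the sum was 8.88 ± 2.45 CPM with the vector and 8.54 ± 4.40 CPM with circEZH2_005 (SD, n = 3 each).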

How the data were processed

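RNA sequencing was measured in 6 samples, 3 per group, grouped and numbered from the sample labels. The authors deposited 1 table with a read count and an FPKM value per gene in each of the samples. Per the submitters' processing notes, cutadapt 1.9, HISAT2 2.0.4, StringTie 1.3.4d, DESeq2 and the mm10 build were used; the annotation, the strandedness and the rule for reads in overlapping genes are not given in the sources used here. The control columns of the table are headed as a negative control; no control but the vector is labelled, so they were read as the vector samples. 0 columns of sample values were left unused.

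Counts were filtered with filterByExpr, scaled with TMM and tested with edgeR 4.0.16 (quasi-likelihood test, R 4.3.3) over all 6 samples, without a covariate. P-values were adjusted with Benjamini-Hochberg over the 18348 genes tested, at a threshold of 0.05. The standard error of a log2 fold change was taken as its value over the root of its F statistic. Library totals were 71506487 to 79919893 counts, CPM values use these totals scaled with TMM, and 3 counts are 0.0377 to 0.0419 CPM. The alternatives were median-of-ratios scaling, no filter, a mean of at least 1 CPM, DESeq2 1.42.0, limma 3.58.1 on log2(FPKM + 1) or log2(FPKM + 0.1) where the mean reached 0.5 FPKM, a replicate block, and leaving out each sample. The fits were tested on simulated data. FPKM was used to compare levels between genes.

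The genes, lists and tests were chosen with earlier results of these data known. Named were the 10 genes, the genes of each list past the adjusted threshold (at most 4) or, where none passed, the 2 with the highest mean CPM, and the 5 genes outside the lists, with a mean of at least 1 CPM, nearest in profile to the summed level. Genes named beyond this rule are marked as such. The result for 1 gene that the rule names is not reported here. Promoter windows were copied from RefSeq (GRCm38.p6), and Col1a1, Myh11 and Dcn had none there.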

Additional observations from a re-analysis of the deposited data

How the results depend on the processing

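The 10 genes gave 0 calls lower under every alternative, and 1 call higher (Vim) under DESeq2, a mean of at least 1 CPM, and leaving out vector sample 2 (0 to 1 over the samples left out). Calls over all genes depended on the processing: against 493 higher and 181 lower, there were 132 and 37 with no filter, 1574 and 698 with DESeq2, 310 and 292 with limma on log2(FPKM + 1), 168 higher with limma on log2(FPKM + 0.1) and 287 lower with a mean of at least 1 CPM. With a replicate block there were 241 higher and 36 lower; same-numbered samples did not deviate together (correlations of -0.23, -0.04 and 0.09), so they share only a number; under this block the calls on Mcam (adjusted p = 0.0515) and Pecam1 (0.0924) were lost. Leaving out 1 sample gave 26 (without vector sample 1) to 1098 (without vector sample 2) higher and 2 to 334 lower. Stromal niche calls ran from 0 to 1 (without vector sample 2) and smooth muscle calls from 0 to 1 (without circEZH2_005 sample 1) over the samples left out, with 2 under DESeq2. The sign of uncalled genes turned on leaving out 1 sample: from -0.71 to 0.28 for Col1a1, -0.80 to 0.99 for Col1a2, -0.89 to 0.27 for Col3a1, -1.13 to 0.12 for Acta2, -0.046 to 2.38 for Myh11, -0.35 to 0.51 for Dcn and -0.73 to 0.034 for Sparc (log2 fold changes). Where a sample was left out, fewer samples were fitted; the cause of the other changes was not tested. The summed levels moved by less than the spread between samples, but the sign of the fibroblast and muscle sums was not stable. The log2 ratio of the fibroblast sum ran from -0.75 to 0.19. That of the muscle sum ran from -0.40 (without circEZH2_005 sample 2) to 1.32 (without vector sample 3). With 5 to 318 counts per sample in the 6 fibroblast genes, differences within the intervals given were not detectable.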

Other observations

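Enzymes that mature collagen were read as well. Of 12 on this list, 10 were tested and 0 passed the adjusted threshold in edgeR, with a median log2 fold change of -0.13. At an unadjusted p under 0.05 there were 2 higher and 3 lower, against 23.7% of all genes tested in either direction. DESeq2 called 1 in each direction, against 9.25% of its genes higher and 4.1% lower. P4hb, a subunit of prolyl hydroxylase that also serves protein folding in secretory cells of any kind, averaged 728.0 FPKM, with a log2 fold change of -0.15 ± 0.18 (SE, adjusted p = 0.681). Plod3, a lysyl hydroxylase gene, had a log2 fold change of -0.30 ± 0.10 (SE, adjusted p = 0.119). Serpinh1, the collagen chaperone, was chosen after its values were seen: it averaged 1.68 ± 0.30 CPM with the vector and 0.579 ± 0.31 CPM with circEZH2_005 (SD, n = 3 each), without overlap, at a log2 fold change of -1.53 ± 0.42 (SE, adjusted p = 0.0806). The other genes of this list at an unadjusted p under 0.05, also chosen after their values were seen, were P4ha2 at -1.56 ± 0.56, Plod2 at 2.00 ± 0.67 and Bmp1 at 0.82 ± 0.32 (log2 fold change, SE), with adjusted p of 0.146, 0.127 and 0.172.

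Cells of the gut wall outside these lists were low too. Of 8 glial and neuronal genes, 4 were tested and 0 passed in edgeR or DESeq2, with a median log2 fold change of -0.33. At an unadjusted p under 0.05 there were 0 of the 4, against 23.7% of all genes tested. Ret, a receptor of enteric neurons, had a log2 fold change of -0.22 ± 0.43 (SE, adjusted p = 0.808). Of 4 mesothelial genes, 3 were tested and 0 passed in edgeR, with a median log2 fold change of -0.22. At an unadjusted p under 0.05 there was 1 of the 3 (Msln), against 23.7% of all genes tested. DESeq2 called 1 lower, against 4.1% of its genes. Msln, the mesothelial surface protein mesothelin, stood at 2.42, 1.08 and 3.93 CPM with the vector and at 0.692, 0.685 and 0.419 CPM with circEZH2_005, at a log2 fold change of -2.05 ± 0.49 (SE, adjusted p = 0.0601). Upk3b had a log2 fold change of 0.44 ± 0.60 (SE, adjusted p = 0.713).

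Of the 12 epithelial genes, Krt20 (log2 fold change 1.18 ± 0.17, SE, adjusted p = 0.0207) and Krt8 (0.57 ± 0.10, adjusted p = 0.0301), both keratins, were called higher with circEZH2_005, and the stem cell receptor Lgr5 (-0.88 ± 0.18, adjusted p = 0.0434) was called lower. Over all genes tested, 2.69% were called higher and 0.986% lower. Over 13 alternatives the adjusted p was under 0.05 in 11 for Krt20, 6 for Krt8 and 4 for Lgr5.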
